A study of Rattus norvegicus with 6 samples.

Results

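Interstitial matrix genes were followed in rat metrial gland at gestation day 13.5, the uterine tissue behind the placenta where decidual stroma, muscle, vessels, natural killer cells and invading trophoblast meet. The list held 35 genes in 5 classes: fibrillar collagens, the remaining nonfibrillar collagens (collagen VI, the fibril-associated FACIT collagens and others), proteoglycans, glycoproteins and elastic fiber genes. It was applied by gene symbol, with the brightest probe set of each gene by its mean over all arrays. Of the 35, 34 were measured, out of 14217 genes with a probe set of their own, and Thbs1 was not analysed here. The hypoxia group was 3 arrays of tissue from pregnant rats held at 10.5% oxygen between days 6.5 and 13.5 of gestation, and the ambient group was 3 arrays from pregnant rats at 21% oxygen. The labels give no strain, age or altered gene, and they do not say whether each array is a separate animal. The p-values therefore cover only the variation among these 6 arrays, and that variation may be technical. Values are log2 expression summaries, so a difference of 1 is a factor of 2.

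Fibrillar collagens are secreted as procollagens, folded into triple helices with hydroxylated prolines, and assembled into fibrils that give a tissue its tensile strength. Collagen VI forms a beaded network around cells, FACIT collagens sit on fibril surfaces, and small leucine-rich proteoglycans set fibril spacing. Elastic fibers consist of elastin deposited on fibrillin microfibrils, which also hold latent TGF-beta. During rodent pregnancy this matrix is remodelled as stroma decidualizes and vessels widen.

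Few interstitial matrix genes passed the test under low oxygen. By limma, with a two-sided test adjusted over the 18625 probe sets kept by a filter on low means, 2 members rose and 0 fell at an adjusted p under 0.05. Those that rose were Mfap5, a microfibril glycoprotein, and Fn1, fibronectin. The remaining 31 tested members did not pass, and Fbn2 was left out for its low mean. Across all tested probe sets 5.99% were called, 4.02% higher and 1.97% lower, so the members' 6.06% was near the background. Of all calls 67.1% were higher, and 55.4% with quantile normalization. At an unadjusted p under 0.05 there were 9 members, 8 higher and 1 lower, or 27.3% against 23.7% of all tested probe sets. The 2 groups did not overlap for 9 of the 33 tested members (27.3%), against 29.9% of all tested probe sets.

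**Figure D1:**
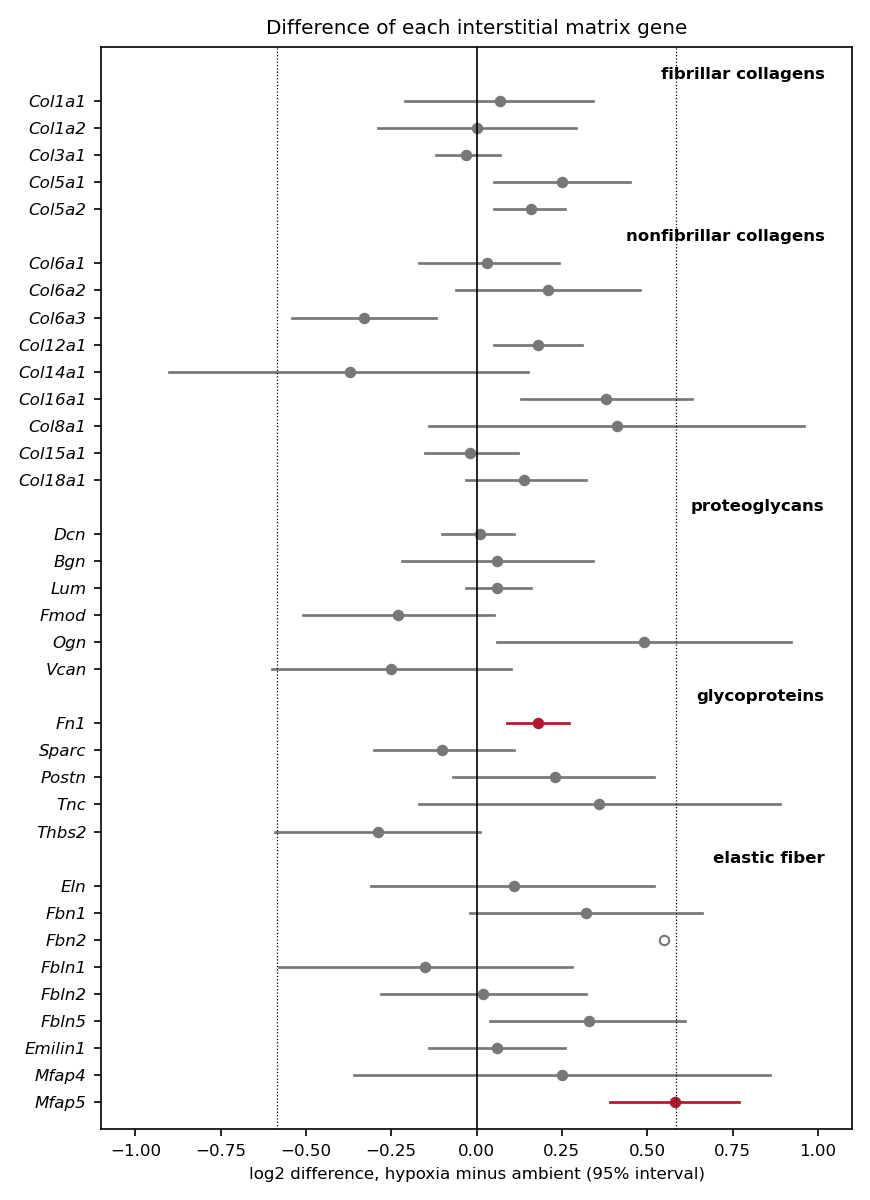
Log2 difference, hypoxia minus ambient, of 34 interstitial matrix genes by class, with the 95% interval of the limma fit (n = 3 arrays per group). Red marks the 2 genes past an adjusted p of 0.05, the open circle is Fbn2, which was not tested, and dotted lines mark a 1.5-fold difference in either direction. Mfap5 lies farthest to the right of the tested genes, at 0.58.

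Mfap5 encodes a small glycoprotein that binds fibrillin microfibrils. It measured 12.18, 12.18 and 12.02 on the hypoxia arrays, against 11.66, 11.61 and 11.39 on the ambient arrays. Every hypoxia value lay above every ambient value. Mfap5 rose by 0.58 (SE 0.08, 95% interval 0.39 to 0.77), or 1.49-fold, with an adjusted p of 0.0117. The call held under all 17 other processing settings, with a difference between 0.50 and 0.63.

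The upstream sequence of Mfap5 is shown because it is the member whose rise held in every setting, with those of P4ha1 and P4ha2, collagen prolyl hydroxylases that also rose. Each run is the 250 bases before the RefSeq gene start on assembly GRCr8, 5′ to 3′ on the gene's strand. Capitals mark the core letters bound by hypoxia-inducible factors, ACGTG or GCGTG, or their reverse complements CACGT and CACGC, in which ACGTG and CACGT can overlap.
Mfap5, chr4:157399669-157399918, strand +: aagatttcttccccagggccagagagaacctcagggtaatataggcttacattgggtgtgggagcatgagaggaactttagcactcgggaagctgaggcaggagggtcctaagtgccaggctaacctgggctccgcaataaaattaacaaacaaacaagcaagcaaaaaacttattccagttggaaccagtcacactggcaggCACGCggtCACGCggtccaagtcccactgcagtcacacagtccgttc
P4ha1, chr20:27844796-27845045, strand +: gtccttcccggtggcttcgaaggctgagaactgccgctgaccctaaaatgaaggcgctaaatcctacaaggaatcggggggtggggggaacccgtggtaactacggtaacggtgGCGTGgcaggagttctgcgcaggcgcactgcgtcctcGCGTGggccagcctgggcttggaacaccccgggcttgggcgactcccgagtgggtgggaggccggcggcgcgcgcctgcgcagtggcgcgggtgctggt
P4ha2, chr10:38743644-38743893, strand +: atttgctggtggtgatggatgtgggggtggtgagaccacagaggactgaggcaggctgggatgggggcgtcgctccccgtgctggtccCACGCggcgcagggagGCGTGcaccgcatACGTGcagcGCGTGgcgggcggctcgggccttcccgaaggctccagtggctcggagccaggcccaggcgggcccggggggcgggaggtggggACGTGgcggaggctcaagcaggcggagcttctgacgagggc
Mfap5 held 2 matches, both as CACGC. P4ha1 held 2 and P4ha2 held 5. At least 1 match on either strand was found in 36.7% of all 33469 upstream sequences of this length. Of the 21 members that the RefSeq promoter table held, 7 had a match. The share with 2 or more matches is not given here. The matches describe the letters, and binding was not tested.

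Among the glycoproteins, Fn1, which links collagen and cell-surface integrins, measured 14.14, 14.10 and 14.11 on the hypoxia arrays and 13.96, 13.90 and 13.95 on the ambient arrays. The groups did not overlap, and the step was small. Fn1 rose by 0.18 (SE 0.04, 95% interval 0.09 to 0.27), or 1.13-fold, with an adjusted p of 0.0381. Its call was lost when any 1 array was left out (adjusted p 0.0588 to 0.118), with quantile normalization (0.0548) and without a variance trend (0.139), while its difference stayed between 0.16 and 0.19. Array maxima were 14.82 to 14.90, so the Fn1 signal lay near the top of the scale.

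The other glycoproteins did not pass. Postn, periostin, a collagen-binding protein of stroma, differed by 0.23 (SE 0.13), and Tnc, tenascin C, an adhesion-modulating hexamer of remodelling tissue, by 0.36 (SE 0.23). Thbs2, an antiangiogenic thrombospondin, was at 6.52, 6.01 and 6.32 in hypoxia and 6.60, 6.61 and 6.50 in ambient, a difference of -0.29 (SE 0.13, adjusted p = 0.232). One hypoxia value fell inside the ambient range. Sparc, a collagen-binding matricellular protein, gave opposite signs at its probe sets. The brightest differed by -0.10 (SE 0.09, adjusted p = 0.551), and the other by 0.35 (SE 0.11, adjusted p = 0.103), and neither passed.

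**Figure D2:**
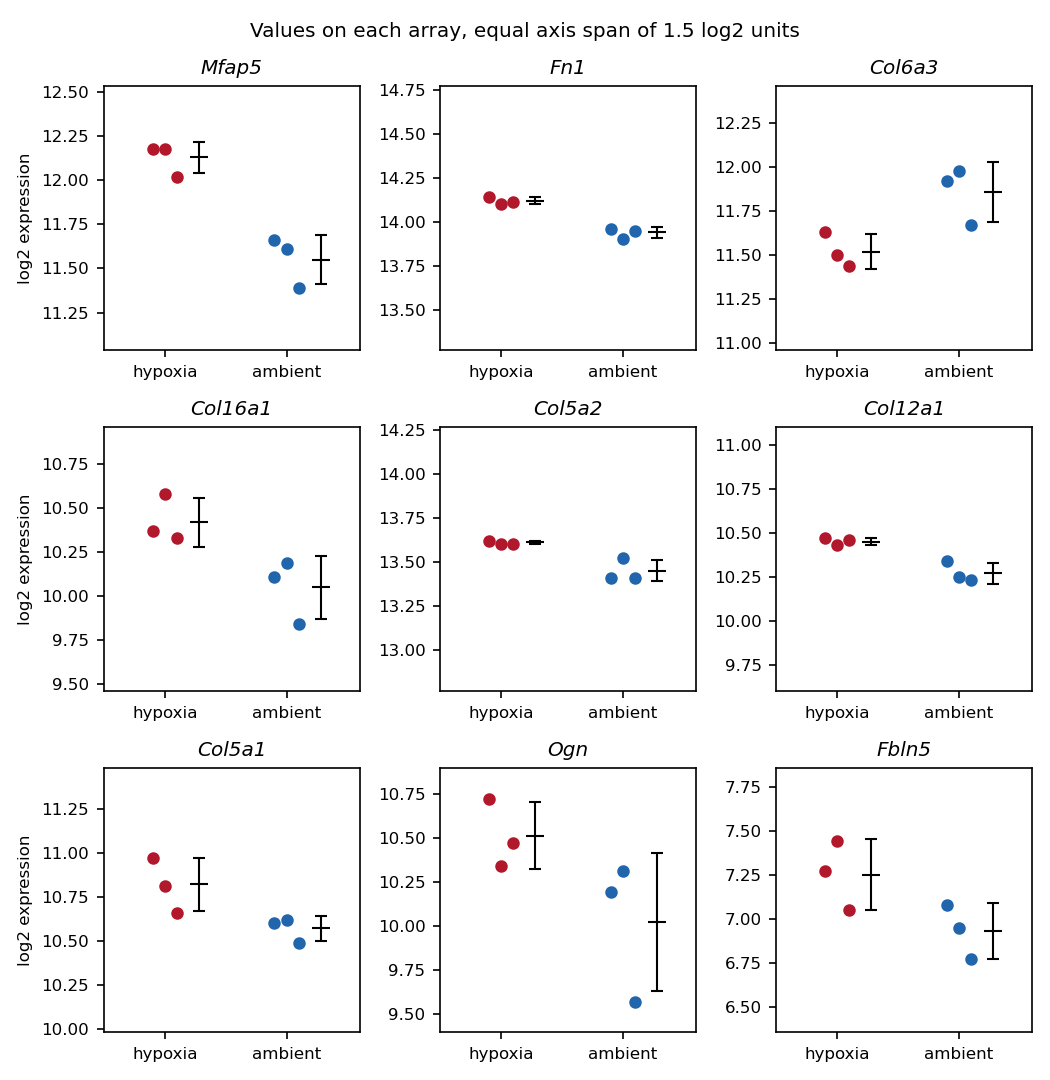
Log2 expression on each array for the 9 members with an unadjusted p under 0.05, ordered by p, in hypoxia (red) and ambient (blue), with the mean and SD of 3 arrays beside the points. All panels span 1.5 log2 units. The groups overlap for Fbln5 and not for the other 8, and Col6a3 is the only one of these 9 that is lower in hypoxia.

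None of the 5 fibrillar collagens passed in limma, 2 had an unadjusted p under 0.05, and their median difference was 0.07. Col1a1, the main chain of type I collagen, measured 13.70, 13.46 and 13.32 in hypoxia and 13.65, 13.37 and 13.27 in ambient. The ranges overlapped almost wholly, and the difference was 0.07 with a 95% interval from -0.21 to 0.34. Its partner chain Col1a2 differed by 0.00 (interval -0.29 to 0.29). Col3a1, the collagen of compliant and vascular stroma, differed by -0.03 (interval -0.12 to 0.07) at levels of 14.28 to 14.38, close to the top of the scale.

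Type V collagen, which is buried in type I fibrils and limits their diameter, had the smallest p-values of the class. Col5a2 was at 13.62, 13.60 and 13.60 in hypoxia and 13.41, 13.52 and 13.41 in ambient. Its groups did not overlap, and its difference was 0.16 (SE 0.05, adjusted p = 0.0859), with 0.18 (SE 0.05, adjusted p = 0.0848) at a second probe set. Col5a1 was at 10.97, 10.81 and 10.66 in hypoxia and 10.60, 10.62 and 10.49 in ambient, a difference of 0.25 (SE 0.09, adjusted p = 0.13). The lowest hypoxia value of Col5a1 was just above the highest ambient one, and a second probe set differed by 0.02. The 95% intervals of all 5 fibrillar collagens lay within a 1.5-fold difference in either direction, between -0.29 and 0.45. Over all members this held for 22 of 33, against 85.3% of all tested probe sets. The median SE was 0.12 for the members and 0.09 for all tested probe sets.

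Of the 9 nonfibrillar collagens 0 passed in limma, and their median difference was 0.14. An unadjusted p under 0.05 was found for 3 (33.3%, against 23.7% of all tested probe sets). Collagen VI is a heterotrimer, and its chains gave differences of both signs, none of which passed. Col6a1 differed by 0.03 (SE 0.09) and Col6a2 by 0.21 (SE 0.12). Col6a3, the largest chain, was at 11.63, 11.50 and 11.44 in hypoxia and 11.92, 11.98 and 11.67 in ambient. All hypoxia values lay below all ambient ones, and the difference was -0.33 (SE 0.09, adjusted p = 0.0718), with -0.37 (SE 0.18) at a second probe set. Col6a3 passed without ambient replicate 3 (-0.43, adjusted p = 0.0485), and Col6a2 without hypoxia replicate 3 (0.36, adjusted p = 0.0342). The difference between the chains was not tested.

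The FACIT collagens also gave differences of both signs, none of which passed. Col16a1 was at 10.37, 10.58 and 10.33 in hypoxia and 10.11, 10.19 and 9.84 in ambient, without overlap, and differed by 0.38 (SE 0.11, adjusted p = 0.0804). Col12a1, which bridges fibrils, was at 10.47, 10.43 and 10.46 in hypoxia and 10.34, 10.25 and 10.23 in ambient, and differed by 0.18 (SE 0.06, adjusted p = 0.106). Its 2 other probe sets differed by 0.13 and -0.05. Col14a1, which regulates fibril growth, differed by -0.37 with an interval from -0.90 to 0.15, and by -0.15 (SE 0.33) at a second probe set. Col8a1, a network collagen of vessel walls, differed by 0.41 (SE 0.24), with a wide interval from -0.14 to 0.96. The multiplexins Col15a1 and Col18a1, which carry antiangiogenic fragments next to basement membranes, differed by -0.02 and 0.14. For Col18a1 the hypoxia values of 9.45, 9.32 and 9.28 stood just above the ambient 9.25, 9.12 and 9.26 (adjusted p = 0.297).

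The 6 proteoglycans had 0 limma calls and a median difference of 0.03. Only Ogn had an unadjusted p under 0.05 (16.7%, against 23.7% of all tested probe sets). Dcn, decorin, which coats collagen fibrils and binds TGF-beta, measured 14.39, 14.34 and 14.39 in hypoxia and 14.35, 14.44 and 14.32 in ambient. The groups interleaved, and the difference was 0.01 (interval -0.10 to 0.11), again near the top of the scale. Lum, lumican, differed by 0.06 (interval -0.03 to 0.16) and Bgn, biglycan, by 0.06 (interval -0.22 to 0.34). Fmod, fibromodulin, which binds the same fibril surface as lumican, differed by -0.23 (SE 0.12, adjusted p = 0.293).

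Ogn, osteoglycin, was at 10.72, 10.34 and 10.47 in hypoxia and 10.19, 10.31 and 9.57 in ambient. The groups did not overlap, with ambient replicate 3 well below the rest, and the difference was 0.49 (SE 0.19, adjusted p = 0.165). All 4 of its probe sets were higher in hypoxia, by 0.24 to 0.69, and none passed. Vcan, versican, a large hyaluronan-binding proteoglycan of loose matrix, differed by -0.25 (SE 0.15, adjusted p = 0.37), with -0.27 and -0.01 at its 2 other tested probe sets.

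**Figure D3:**
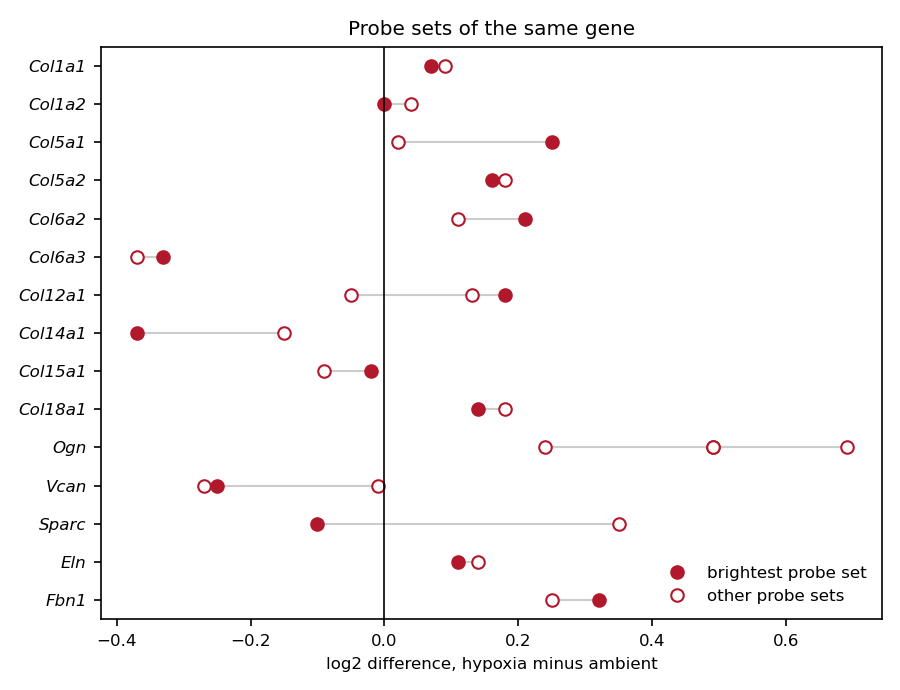
Log2 difference, hypoxia minus ambient, at every tested probe set of the 15 members with more than 1 of them. Filled circles are the brightest probe set of the gene and open circles the others. Of 19 other probe sets, 17 share the sign of the brightest, and the 2 that do not belong to Sparc and Col12a1.

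The elastic fiber class had a median difference of 0.25 over its 9 members, of which 8 were above 0. Without Fbn2, which was not tested, the median of the other 8 was 0.178, against 0.181 for the glycoproteins. Of 8 tested, 1 rose (Mfap5), 0 fell and 7 did not pass (12.5% called, against 5.99% of all tested probe sets). Fbn1, the main fibrillin, was at 10.65, 10.42 and 10.21 in hypoxia and 10.17, 10.33 and 9.83 in ambient, with 1 hypoxia array inside the ambient range, and differed by 0.32 (SE 0.15, adjusted p = 0.239). Fbln5, needed to assemble elastin on microfibrils, was at 7.27, 7.44 and 7.05 in hypoxia and 7.08, 6.95 and 6.77 in ambient, and differed by 0.33 (SE 0.13, adjusted p = 0.166). Eln, elastin itself, differed by 0.11 with an interval from -0.31 to 0.52.

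Fbn2, the fibrillin best known from developing tissue, was at 4.76, 5.49 and 5.47 in hypoxia and 4.62, 4.70 and 4.74 in ambient. Of these values, 2 hypoxia and 0 ambient ones stood above the highest of 27 bacterial control probe sets. Against the mean of the highest bacterial value per ambient array (4.91), the hypoxia mean of 5.24 was 1.26-fold higher. Hypoxia replicate 1 (4.76) was itself below that value, so no minimum fold follows. The measured ambient mean was 4.69, and the adjusted p without the filter was 0.134. The remaining members, Fbln1 (-0.15), Fbln2 (0.02), Emilin1 (0.06) and Mfap4 (0.25), are fibulins and microfibril-associated proteins, and their groups overlapped.

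Over all 34 members 25 differences were above 0 and 9 below, with a median of 0.09. Among all tested probe sets 50.8% were above 0 and the median was 0.00. Most members were lowest in their group on the array numbered 3, namely 22 of 34 in hypoxia (64.7%) and 27 of 34 in ambient (79.4%), against 35.7% and 30.6% of all tested probe sets. The median deviation of the members from their own mean over 6 arrays was 0.13, 0.08 and -0.08 on the hypoxia arrays and -0.02, 0.03 and -0.18 on the ambient arrays. For the elastic fiber class it was 0.18, 0.19 and -0.06 in hypoxia and -0.02, -0.10 and -0.31 in ambient, so hypoxia replicate 3 lay below ambient replicate 1. That class's median difference was 0.06 without hypoxia replicate 1 and 0.43 without hypoxia replicate 3.

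Smooth muscle markers were low on the same arrays. All 10 were lowest on replicate 3 of their group. Their summed linear signal was 40458, 40489 and 29868 on the hypoxia arrays and 42373, 34784 and 30930 on the ambient arrays. Between the groups 0 of the 10 passed in limma, and Lmod1 differed by 0.29. Cald1 (0.27, adjusted p = 0.0505) alone had an unadjusted p under 0.05 (10.0%, against 23.7% of all tested probe sets). Cald1 passed under 5 of 17 other settings (adjusted p down to 0.037), while its other probe sets differed by 0.11 and -0.01, and Lmod1 passed without hypoxia replicate 3 (0.0469). In bulk tissue fewer cells of a type and less RNA per cell cannot be told apart, and the part of muscle content in the members' values was not tested. With both arrays numbered 3 left out, a setting chosen after seeing the data, Mfap5 was the member that passed (0.55, adjusted p = 0.0318) and Fn1 did not (0.19, adjusted p = 0.122).

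**Figure D4:**
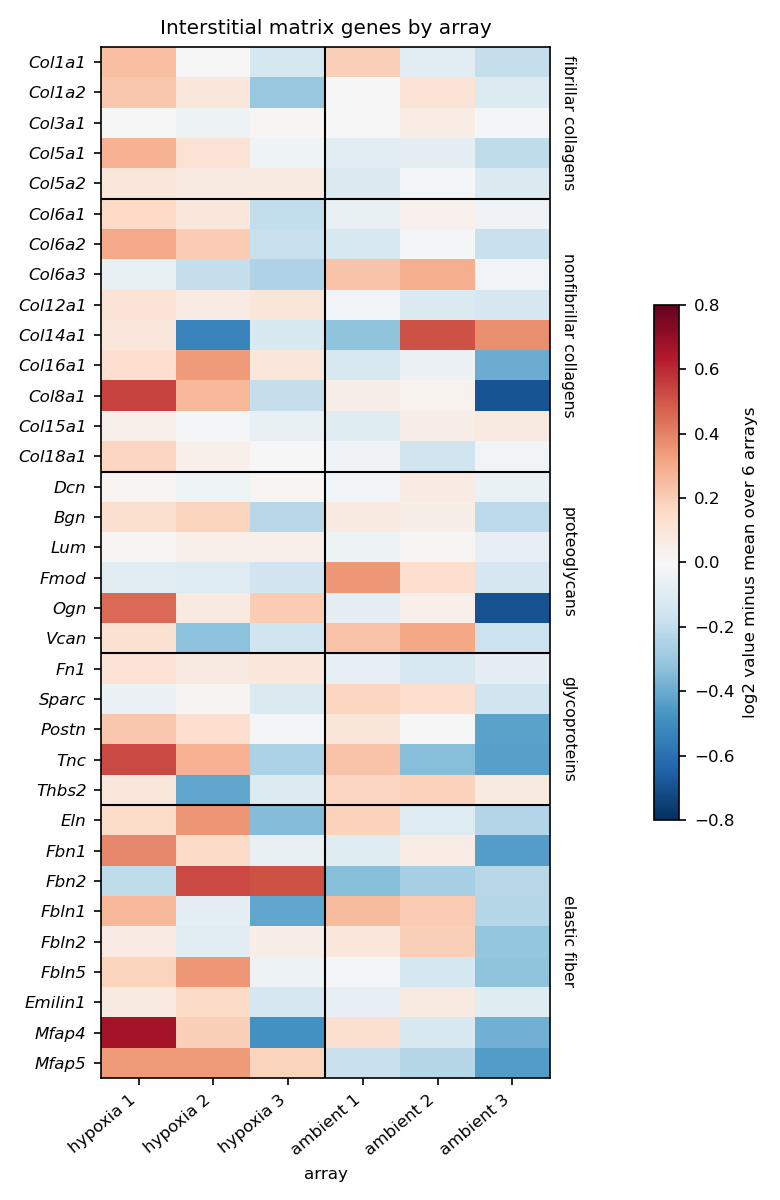
Log2 value of each member minus its mean over the 6 arrays, with genes in rows by class and arrays in columns, hypoxia to the left of the line. Red is above and blue below the gene's own mean. Blue prevails in the columns of hypoxia replicate 3 and ambient replicate 3, and the Mfap5 row is red on all 3 hypoxia arrays and blue on all 3 ambient arrays.

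Markers of other cell types moved with the groups. For comparison, 5.99% of all tested probe sets were called, 4.02% higher and 1.97% lower. At an unadjusted p under 0.05 the share of all tested probe sets was 23.7%. Of 10 trophoblast markers 9 rose, with a summed linear signal of 13078 to 18073 in hypoxia and 2735 to 6839 in ambient, with the smallest p-values for Plac1 (2.16) and Krt7 (1.05). Of 9 measured endothelial markers 5 rose (sums 8677 to 9289 in hypoxia and 7196 to 7691 in ambient, with the smallest p-values for Vwf and Tie1), as did 4 of 6 tested red cell markers (sums 18312 to 22694 in hypoxia and 7707 to 10581 in ambient, with the smallest p-values for Hbb and Alas2). Of 10 natural killer cell markers 5 fell, with the smallest p-values for Cst7 and Nkg7 (sums 42136 to 45754 in hypoxia and 51634 to 59750 in ambient). At an unadjusted p under 0.05, 8 of them were lower and 1, Klrd1, was higher (0.52, adjusted p = 0.192). Ncr1 differed by -0.01. The summed linear signals rest mostly on the brightest genes of a list. On hypoxia replicate 3, Prl7b1 (13.09) and Prl5a1 (12.31) stood above Plac1 (8.38) and Krt7 (7.87), and Hbb (14.03) above Alas2 (9.18). These 3 bright genes rose. Among the natural killer cell markers, Gzmb (14.36) and Prf1 (13.33) stood above Nkg7 (12.42) and Cst7 (10.38) on that array. Gzmb (adjusted p = 0.0825) and Prf1 (0.107) were lower in hypoxia without passing. Among macrophage markers 1 of 9 tested fell, Cd163 (-1.05), and Mrc1 differed by -0.55 without passing (sums 4105 to 4750 in hypoxia and 4909 to 5635 in ambient). Of 6 tested epithelial markers 2 fell, Epcam and Cdh1 (sums 615 to 929 in hypoxia and 1003 to 1359 in ambient). Epcam lost its call under 8 of 17 other settings (adjusted p up to 0.18) and Cdh1 under 9 of 15 (up to 0.209), both in 5 of the 6 fits without 1 array. Of 12 markers of fibroblasts and decidual stroma, the cells best known for interstitial collagen, 2 of the 11 tested rose, Hand2 (0.64) and Bmp2 (0.91). Hand2 passed under all 17 other settings, and Bmp2 lost its call under 7 of 15 (adjusted p up to 0.19). The summed stroma signal was 37191 to 47410 in hypoxia and 31814 to 34323 in ambient, and without the decidual prolactin gene Prl8a2 (1.73, adjusted p = 0.0683) it was 30170 to 33106 in hypoxia and 29142 to 30798 in ambient. At an unadjusted p under 0.05, 5 of the 11 tested stroma markers were higher and 1 was lower. Among the higher ones, Pdgfrb (0.35, adjusted p = 0.164) and Des (0.20, adjusted p = 0.126) did not pass. The lower one was Pdgfra, a fibroblast receptor, which did not pass either (-0.24, adjusted p = 0.0604, groups not overlapping). Vim, Hoxa10 and Hoxa11 differed by 0.00. Prl8a2, Pdgfra, Pdgfrb, Des, Vim, Hoxa10, Hoxa11, Klrd1, Ncr1, Ahsp, Prl7b1, Prl5a1, Gzmb and Prf1 were chosen after their values were seen. In these lists 2 red cell and 2 epithelial markers stayed at or below the bacterial controls on all arrays. Bmp2 (ambient mean 5.67) and Ahsp (5.61), a red cell marker counted as risen, passed the filter on low means through their hypoxia values. The part of these shifts in Mfap5 and Fn1 was not tested. For the actin control probe sets, the 3′ end exceeded the 5′ end by 0.58 to 0.77 in hypoxia and 0.41 to 0.54 in ambient on the log2 scale, and its part was not tested either.

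Enzymes that modify and crosslink collagen included several calls. Of 19 tested, 3 rose and 0 fell (15.8%), against 5.99% called among all tested probe sets. At an unadjusted p under 0.05, 12 were higher and 0 lower (63.2%), against 23.7% of all tested probe sets. This list and those below were chosen with earlier results of these data known, so their shares are descriptions. Among the 12, P4ha3 passed the filter on low means through its hypoxia values (ambient mean 5.67). P4ha1 and P4ha2, the catalytic subunits of collagen prolyl 4-hydroxylase, rose. P4ha1 was at 10.67, 10.62 and 10.63 in hypoxia and 10.13, 10.30 and 10.15 in ambient, a rise of 0.45 (SE 0.06, adjusted p = 0.0117). P4ha2 rose by 0.42 (SE 0.08, adjusted p = 0.024), with 0.07 and no call at its second probe set. The groups did not overlap for either gene. Tgm2, transglutaminase, which crosslinks fibronectin and collagen, rose by 0.55 (SE 0.10, adjusted p = 0.023), with 0.58 at a second probe set that also passed.

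The receptors and growth factors around the matrix gave single calls. Of 14 tested matrix receptors 2 rose, 1 fell and 11 did not pass (21.4% called, against 5.99% of all tested probe sets). At an unadjusted p under 0.05, 4 receptors were higher and 2 lower (42.9%, against 23.7%). Itgb6, whose integrin binds fibronectin and activates latent TGF-beta, was at 6.25, 7.18 and 6.58 in hypoxia and 4.88, 5.07 and 4.63 in ambient, with 1 ambient array above the bacterial controls, and it passed the filter on low means through its hypoxia values. Its measured difference was 1.81 (adjusted p = 0.00774), and 0.84 with an offset of 64. With each ambient array set no lower than its highest bacterial control (mean 4.97), hypoxia (mean 6.67) was 3.26-fold higher. That ratio is a point estimate and not a minimum, and the limma interval of the measured fold was 2.45 to 5.03. Itgb5, a vitronectin receptor chain, rose by 0.50 (SE 0.10), with 0.67 at a second probe set that also passed. Sdc4, syndecan 4, a fibronectin co-receptor, fell by 0.43 on the log2 scale, with a limma difference of -0.43 (SE 0.07, adjusted p = 0.0134). Of 16 members of the TGF-beta axis 2 rose and 0 fell (12.5%, against 5.99%), and the median difference was 0.03. At an unadjusted p under 0.05, 3 were higher and 3 lower (37.5%, against 23.7%). The lower ones were Tgfbr3 (-0.49, adjusted p = 0.0653), Smad2 (-0.24) and Tgfbi (-0.30). Tgfb3 was at 11.99, 11.70 and 11.69 in hypoxia and 11.05, 10.90 and 10.87 in ambient, a rise of 0.85 (SE 0.09, adjusted p = 0.00526). Tgfb2 rose by 0.52 (SE 0.11, adjusted p = 0.037), with 0.30 and no call at its second probe set. Tgfb3 passed with any 1 array left out. Itgb6 passed without any 1 ambient array and was below the filter on low means without any 1 hypoxia array. P4ha1, P4ha2, Tgm2, Itgb5, Sdc4 and Tgfb2 each lost the call without at least 1 array, and all of them were above 0.05 without ambient replicate 3 (0.0502 for P4ha1 to 0.107 for Tgfb2).

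Of 13 tested genes of glycosaminoglycan synthesis, which build the sugar chains of proteoglycans and hyaluronan, 1 rose, Csgalnact1, a chondroitin sulfate initiating enzyme (0.53, SE 0.08, adjusted p = 0.0153), and 0 fell. That share of 7.69% was near the 5.99% called among all tested probe sets. At an unadjusted p under 0.05, 3 were higher and 1 lower (30.8%, against 23.7%). Csgalnact1 lost its call when ambient replicate 2 (adjusted p 0.0551) or ambient replicate 3 (0.0601) was dropped. Of 12 tested collagen- and elastin-degrading enzymes and inhibitors, 2 rose, Mmp10 (3.13, SE 0.49) and Mmp12 (1.68, SE 0.36), and 0 fell. The share called was 16.7%, against 5.99% of all tested probe sets. At an unadjusted p under 0.05, 6 were higher and 2 lower (66.7%, against 23.7%). Mmp10 lost its call without ambient replicate 3 (0.0611), and Mmp12 without ambient replicate 2 or any 1 hypoxia array (up to 0.0935). Without both arrays numbered 3 the rise of Mmp12 was 1.07.

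**Figure D5:**
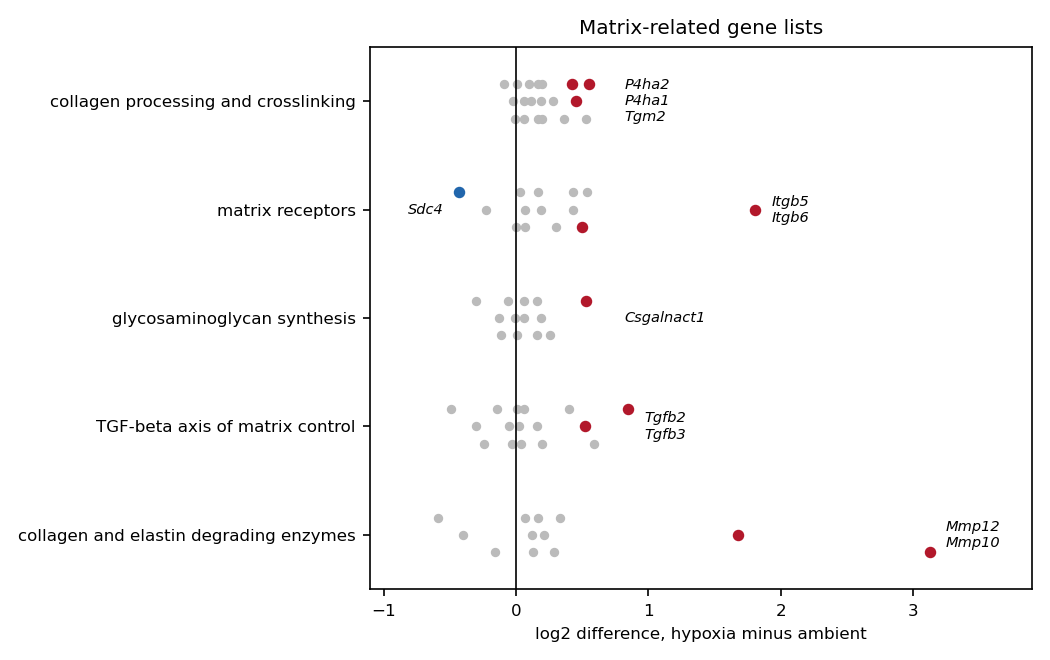
Log2 difference, hypoxia minus ambient, of every tested gene in 5 lists around the interstitial matrix. Red points passed an adjusted p of 0.05 as higher, blue as lower and grey did not pass, with the called genes named from smaller to larger difference. Mmp10, at 3.13, lies farthest to the right, the position of Itgb6 (1.81) rests on ambient values near the bacterial controls, and Sdc4 is the only called gene to the left of 0.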

How the data were processed

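Total RNA of 6 rat metrial gland samples was hybridised to single-channel Affymetrix arrays, per the labels' protocols. Each probe set has a deposited log2 value, between 2.98 and 14.90, and the log2 scale was inferred from this range. MAS5 and Affymetrix Expression Console are named, with neither role nor version, per the submitters' processing notes. How background, summarization and scaling were handled is not given in the sources used here. Array medians lay between 6.44 and 6.47.

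Of 31099 probe sets 57 were controls. The 40% with the lowest mean (below 5.74) were left out, which kept 18625. Gene symbols came from the platform annotation, updated through the RefSeq table of GRCr8, which held 20758 of 20826 probe sets with 1 symbol and changed 0. Probe sets with several symbols (436) or none (9780) were tested but not named. The groups were compared with limma 3.58.1 under R 4.3.3 (lmFit, eBayes with a mean-variance trend, group as the only term, Benjamini-Hochberg over all kept probe sets), and adjusted p-values come from this fit with n = 3 arrays per group. The planned design allowed for linear values, which was not needed.

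The members and lists were chosen with earlier results of these data known. Named genes are all members, the called genes of each pathway list (up to 4 by smallest p) and the 2 marker genes with the smallest p per list. Further list genes were named after their values were seen. Of the lists, genes without a probe set of their own were not analysed here. Summed marker signals add the linear values of the brightest probe set of each marker, and upstream sequences come from RefSeq. The fit was tested on simulated data. Precision is limited by the number of arrays. Array pairs correlated at 0.989 to 0.993 within groups and 0.974 to 0.983 between groups, with 0 identical pairs. The alternatives were other filters, normalizations, variance models and probe set choices, an offset of 64, array weights, a replicate block and each array left out.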

Additional observations from a re-analysis of the deposited data

How the results depend on the processing

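The count of members that rose was 2, and it was 1 with quantile normalization, without a variance trend and without both arrays numbered 3, and 1 to 2 with 1 array left out. The count that fell was 0, and 0 to 1 with 1 array left out. The replicate numbers of the titles were not shown to pair the arrays, since same-numbered arrays deviated together at correlations of 0.012, 0.071 and 0.07 over the tested probe sets. With the replicate block 3 members were higher (Mfap5, Col16a1 at an adjusted p of 0.0305 and Col8a1 at 0.0434), 1 was lower (Col6a3, 0.0365), and Fn1 was at 0.0556, and 5 matrix receptors were called. With 1 array left out the median difference was 0.06 to 0.43 for the elastic fiber class, -0.03 to 0.15 for fibrillar collagens, 0.09 to 0.18 for nonfibrillar collagens, -0.02 to 0.06 for proteoglycans, 0.07 to 0.19 for glycoproteins and 0.03 to 0.17 for all members, so the order of the classes changed and the sign turned for fibrillar collagens and proteoglycans.

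Calls in the pathway lists ranged with 1 array left out from 0 to 4 for collagen processing, 1 to 3 for matrix receptors, 0 to 2 for glycosaminoglycan synthesis, 1 to 2 for the TGF-beta axis and 1 to 2 for degrading enzymes. Without both arrays numbered 3 they were 1, 0, 0, 1 and 1. The TGF-beta axis had 1 call with the mean of a gene's probe sets, and the degrading enzymes 1 without a variance trend and 1 with a robust trend.

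Signs turned for 12 members, none of them called. With 1 array left out the ranges were -0.04 to 0.17 for Col1a1, -0.11 to 0.15 for Col1a2, -0.04 to 0.14 for Col6a1, -0.07 to 0.02 for Col15a1, -0.02 to 0.04 for Dcn, -0.03 to 0.19 for Bgn, -0.05 to 0.31 for Eln, -0.32 to 0.02 for Fbln1, -0.13 to 0.12 for Fbln2, 0.00 to 0.14 for Emilin1 and -0.02 to 0.55 for Mfap4. Quantile normalization gave -0.03 for Col1a2 and -0.01 for Fbln2, array weights gave 0.00 for Dcn, and the mean of probe sets gave 0.13 for Sparc. Without both arrays numbered 3 Col15a1 was at 0.04, Dcn at -0.02 and Fbln2 at -0.15. The cause of these changes was not tested.

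Among the named markers, Tie1 (0.0571) and Krt7 (0.0702) lost their calls without both arrays numbered 3, Cst7 (0.0565) without ambient replicate 3 and Nkg7 (0.0528) without hypoxia replicate 1. Over all tested probe sets 1116 were called, 270 to 1006 with 1 array left out and 213 without both arrays numbered 3. The number of arrays limits every interval.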
